A study of Rattus norvegicus with 24 samples.

Results

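The effect of massive brain damage on the gently ventilated rat lung was examined by comparing the 6 BD LVT/OLPEEP arrays with the 6 NBD LVT/OLPEEP arrays, which are 12 of the 24 arrays of the series. Arrays were chosen by their labels alone, and each of the 19239 features was tested. All rats were male adult Wistar rats, and each array held total RNA of the right lung of 1 rat. BD rats received brain damage by inflation of an epidural balloon, whereas NBD rats had no brain damage and no trepanation, so the NBD group is not a sham-operated control. All rats were anaesthetised with ketamine and xylazine and mechanically ventilated. LVT/OLPEEP denotes a low tidal volume with a positive end-expiratory pressure (PEEP) set to the lowest elastance of the respiratory system, named best PEEP in the labels. The remaining 12 rats, also BD or NBD, were ventilated with a high tidal volume and low PEEP (HVT/LPEEP). They are used here to share the estimate of spread and to read the same comparison in other rats. The study reports deaths in both HVT/LPEEP groups and none in either LVT/OLPEEP group. Its array analysis included non-survivors of BD HVT/LPEEP, which the labels do not identify.

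Brain damage can interrupt the signals that leave the hypothalamus and pituitary, among them the axis that releases glucocorticoid hormone from the adrenal cortex, and it is accompanied by a surge of catecholamines. Glucocorticoid binds a receptor that enters the nucleus and raises the transcription of genes such as Fkbp5, Tsc22d3, Per1, Zbtb16 and Klf15 in many tissues, the lung included. Chemokines, among them Ccl12, are secreted proteins that attract leukocytes. Neither hormones nor catecholamines were measured in the data used here.

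Values are log2 values that the authors had normalised between arrays, and a feature was called when its limma p-value stayed below 0.05 after Benjamini-Hochberg adjustment across the 19239 features. Differences are BD minus NBD on the log2 scale, with their SE. The tissue label was borne out by Sftpa1, a surfactant protein of alveolar type II cells, which lay between 14.16 and 14.27 in NBD LVT/OLPEEP, near the highest value of any feature, 14.53. Within-group correlations ranged upwards from 0.951 in 1 NBD HVT/LPEEP rat (animal 12) and 0.955 in 1 BD LVT/OLPEEP rat (animal 16), and reached 0.988. The array of animal 16 stood apart from its group by skeletal muscle genes, described further on, and the main counts are also given without it. In whole lung, fewer cells of a type and less RNA per cell cannot be told apart.

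Under LVT/OLPEEP, 142 features differed between BD and NBD, which is 0.738% of those tested. More features were lower in BD (102, 0.53%) than higher (40, 0.208%). Of the 142, 133 carried a gene symbol. With Holm's correction, the correction named in the study's methods, 17 features remained, of which 16 were lower and 1, Slc30a1, was higher. Most differences were modest, since 42 of the 142 reached 1.5-fold (6 higher and 36 lower). Without animal 16, 80 features were called (24 higher and 56 lower), 12 passed Holm's correction and 33 reached 1.5-fold. Of the 80, 75 were among the 142 in the same direction, and 5 were called only without that array. The values of BD and NBD rats did not overlap for 107 of the called features, and over all features they did not overlap for 365 (1.9%). Without animal 16, which leaves 5 BD rats, these numbers were 67 and 508.

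The features that fell furthest were led by glucocorticoid target genes. Zbtb16, a zinc finger transcription factor, ranged from 11.31 to 12.06 with a median of 11.95 in NBD, and from 8.89 to 10.29 with a median of 9.68 in BD. It fell by 2.25 ± 0.23 (adjusted p = 9.91e-06), so that NBD was 4.77-fold above BD. Every BD rat lay below every NBD rat. Fkbp5, a co-chaperone that lowers the hormone affinity of the glucocorticoid receptor, ranged from 11.33 to 11.76 (median 11.45) in NBD and from 9.55 to 10.27 (median 9.70) in BD. Fkbp5 fell by 1.66 ± 0.13 (adjusted p = 1.97e-07), with the smallest p-value of all features, and the groups were separated by more than the range of either. Per1, a repressor of the circadian clock whose transcription also responds to glucocorticoid, ranged from 11.30 to 11.92 (median 11.53) in NBD and from 10.03 to 10.71 (median 10.38) in BD, and fell by 1.21 ± 0.12 (adjusted p = 9.91e-06). Tsc22d3, which encodes the anti-inflammatory leucine zipper protein GILZ, ranged from 10.27 to 11.04 (median 10.78) in NBD and from 9.41 to 10.04 (median 9.73) in BD, and fell by 1.02 ± 0.14 (adjusted p = 0.00072). Neither gene had overlapping groups.

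**Figure D1:**
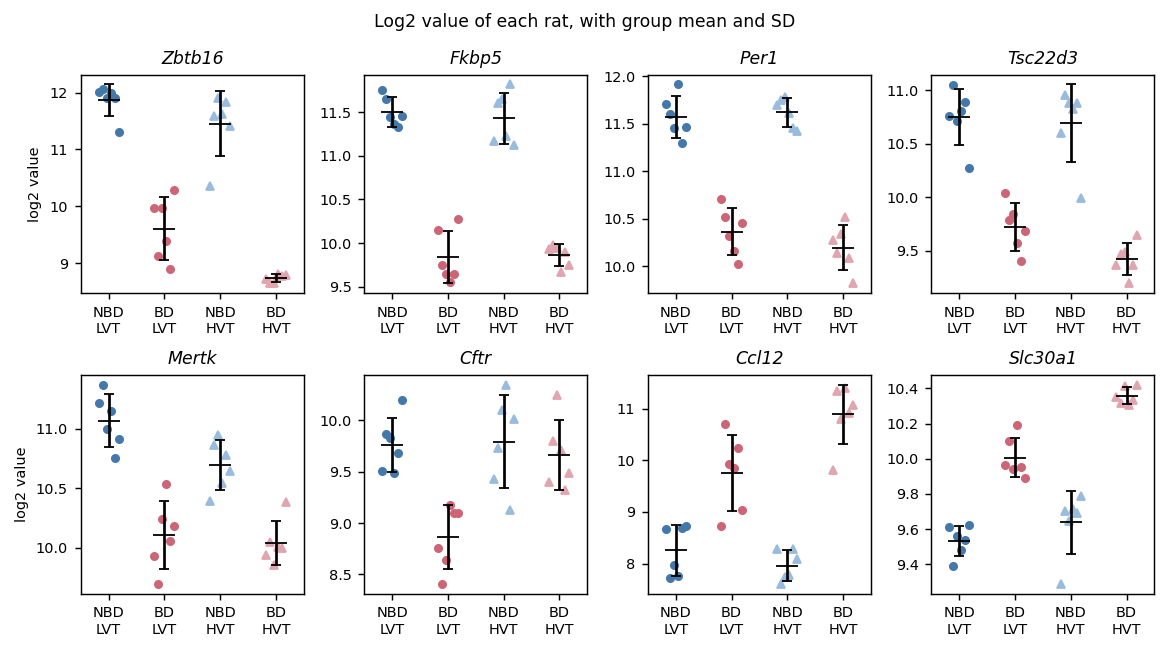
Log2 values (vertical axes) of 8 genes in each rat of the 4 groups, with 1 point per rat, the group mean (horizontal line) and its SD (bar). Under LVT/OLPEEP, BD rats lay below all NBD rats for Zbtb16, Fkbp5, Per1, Tsc22d3, Mertk and Cftr, and above all of them for Ccl12 and Slc30a1.

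Like all lists, the list of glucocorticoid target genes was chosen with earlier results of these data known, so its counts are no independent evidence. It had 30 measured members, of which 7 were called lower and 0 higher, against 0.53% and 0.208% of all features. Besides the 4 genes above, these were Hif3a, a hypoxia-inducible factor subunit that can inhibit its relatives, Map3k6, a stress kinase, and Klf15, a transcription factor of amino acid and lipid metabolism. Hif3a ranged from 9.03 to 9.78 in NBD and from 8.38 to 8.73 in BD, and fell by 0.90 ± 0.12 (adjusted p = 0.000387). Klf15 ranged from 8.80 to 9.31 in NBD and from 8.43 to 8.65 in BD, and fell by 0.65 ± 0.10 (adjusted p = 0.00222). Groups did not overlap for either gene. Map3k6 was the least firm of the 7, with overlapping groups, a difference of -0.67 ± 0.16 and an adjusted p of 0.048, and without animal 16 its adjusted p was 0.0859. Over the whole list, 22 of 30 members were lower on average in BD, and the median difference was -0.43, against 0.003 over all features. The other 8 members were higher on average, and the highest, Angptl4, had a difference of 0.38 (adjusted p = 0.677). Klf9, another transcription factor on the list, did not pass the test, with a difference of -0.57 ± 0.16 (adjusted p = 0.115). Without animal 16, 6 members were called lower and the median was -0.46, and leaving out any other rat gave 6 to 9.

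The receptors themselves gave no called change. On the list of glucocorticoid and mineralocorticoid receptors and the enzymes that interconvert active and inactive glucocorticoid, 0 of 8 measured members were called. At an unadjusted limma p under 0.05, 0 were higher and 1 lower, against 1103 and 1127 of all 19239 features. The median difference of the 8 was -0.05. Nr3c1, the glucocorticoid receptor, named here after its value was seen, differed by -0.04 (adjusted p = 0.951). H6pd, which supplies the cofactor of the activating enzyme, had the smallest p of that list, with a difference of -0.34 ± 0.13 (adjusted p = 0.275).

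**Figure D2:**
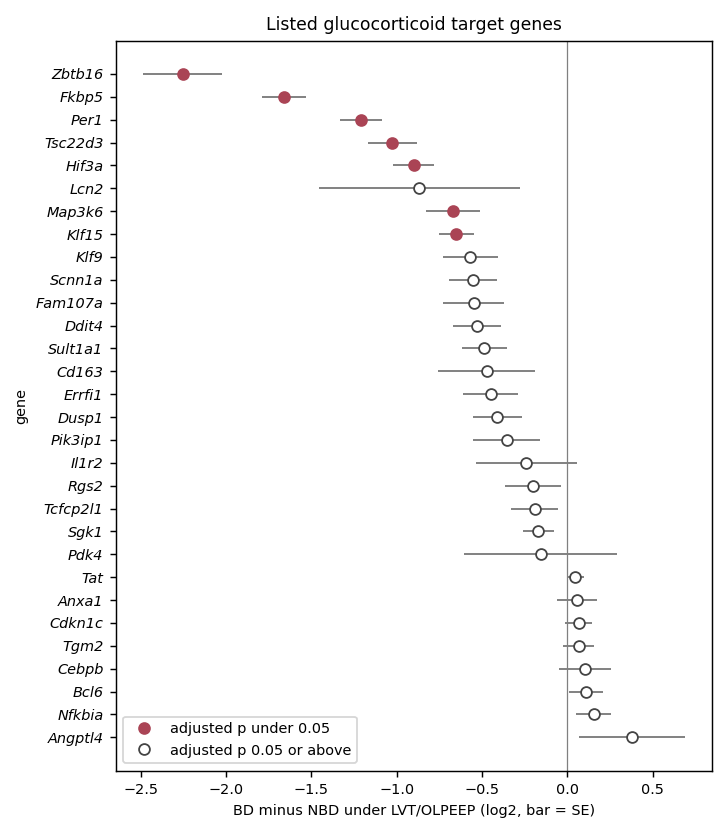
Difference between BD and NBD under LVT/OLPEEP (horizontal axis, log2, bars show the SE) for the 30 measured glucocorticoid target genes, ordered by size, with called genes filled. The differences run from -2.25 for Zbtb16 to 0.38 for Angptl4, and the 7 called genes are all on the lower side.

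The windows around the annotated start site of called genes were searched for the letters bound by the glucocorticoid receptor, since its listed targets led the falls. Windows of 300 bases, 250 before and 50 after the start, came from RefSeq with build GRCr8. They were found for 13544 named features, 78 of those called lower and 32 of those called higher, and Zbtb16 had no entry. The palindromic element, GNACA and TGTNC separated by 3 bases and searched on both strands like all other motifs, was in 0.354% of all windows, in 2 of the 78 lower and in 0 of the 32 higher. The half-site AGAACA was in 15.2% of all windows, 12.8% of the lower and 9.38% of the higher. The E-box CACGTG, bound by clock factors, was in 7.91%, 10.3% and 6.25%, and the CRE TGACGTCA, bound by the cAMP-responsive factor CREB, in 2.41%, 2.56% and 0%. A further 2 motifs were searched after the calls were known. A loose form of the NF-kappaB site, GGGA and CC separated by 4 bases, was in 22.8%, 28.2% and 28.1%, and TTGCGCAA, the C/EBP site, in 0.244%, 0% and 0%. With 2 windows, the count for the palindrome is too small to read against the other windows, and receptor binding was not measured. The windows shown are those of the called gene with the smallest p-value and of the 2 called genes that hold the palindrome, with palindromes and half-sites in capitals. In these windows no half-site lay within a palindrome.
Fkbp5, chr20:6543506-6543805, minus strand: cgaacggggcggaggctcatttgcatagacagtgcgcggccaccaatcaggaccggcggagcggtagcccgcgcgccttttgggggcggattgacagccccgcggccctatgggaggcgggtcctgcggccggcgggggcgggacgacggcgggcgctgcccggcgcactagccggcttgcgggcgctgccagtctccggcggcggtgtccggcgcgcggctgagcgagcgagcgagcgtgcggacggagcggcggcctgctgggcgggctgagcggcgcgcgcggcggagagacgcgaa
Rab17, chr9:99013983-99014282, minus strand: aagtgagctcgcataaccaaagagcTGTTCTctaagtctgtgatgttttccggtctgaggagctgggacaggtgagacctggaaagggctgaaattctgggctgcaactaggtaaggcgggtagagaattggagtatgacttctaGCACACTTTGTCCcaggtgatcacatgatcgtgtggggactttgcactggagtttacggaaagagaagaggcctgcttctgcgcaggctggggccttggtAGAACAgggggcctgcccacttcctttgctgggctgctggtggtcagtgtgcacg
Map3k6, chr5:150723995-150724294, plus strand: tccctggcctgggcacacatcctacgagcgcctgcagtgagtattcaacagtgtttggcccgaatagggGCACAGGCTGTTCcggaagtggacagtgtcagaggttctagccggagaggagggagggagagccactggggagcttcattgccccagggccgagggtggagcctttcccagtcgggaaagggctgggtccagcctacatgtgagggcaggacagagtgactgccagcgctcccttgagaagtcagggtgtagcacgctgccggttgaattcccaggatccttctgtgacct
Fkbp5 held neither form in this window, and sites outside the windows were not searched. Rab17, a small GTPase of epithelial membrane traffic, held 1 palindrome and 2 half-sites and fell by 0.36 ± 0.08 (adjusted p = 0.0444). Map3k6 held 1 palindrome.

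Large falls outside the glucocorticoid list are given gene by gene, and whether these genes respond to glucocorticoid was not tested. Adamtsl2, a secreted protein that binds matrix and latent TGF-beta, ranged from 10.54 to 11.17 in NBD and from 9.28 to 9.84 in BD, and fell by 1.14 ± 0.13 (adjusted p = 6.39e-05). Mertk, a receptor by which macrophages take up apoptotic cells, ranged from 10.75 to 11.37 in NBD and from 9.70 to 10.53 in BD, and fell by 0.96 ± 0.13 (adjusted p = 0.000387). In neither case did the groups overlap. Mertk was the only called member of the macrophage and monocyte markers (1 of 18 lower, 0 higher, against 0.53% and 0.208% of all features). Of the 18, 14 were lower on average in BD, with a median of -0.22. At an unadjusted p under 0.05, 3 were lower and 0 higher, against 1127 and 1103 of all 19239 features. The summed level of these markers ranged from -0.09 to 0.33 in NBD and from -0.29 to -0.02 in BD, which overlap. Slc10a6, a transporter of sulfated steroids, fell by 0.92 ± 0.11 (adjusted p = 9.62e-05), and Gpr182, an endothelial receptor that scavenges chemokines, by 0.90 ± 0.15 (adjusted p = 0.00361). RGD1563692, now named Mab21l4, fell by 0.97 ± 0.13 (adjusted p = 0.000387), and Cyp4v3, a fatty acid hydroxylase of the cytochrome P450 family, by 0.94 ± 0.18 (adjusted p = 0.0126) with groups that overlapped. One feature without a gene symbol would have stood among them, with a difference of -1.20 ± 0.20 (adjusted p = 0.00551).

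The list for salt and water transport across the alveolar epithelium had 14 measured members, of which 2 were called lower and 0 higher, against 0.53% and 0.208% of all features. On average 8 of the 14 were lower in BD and 6 higher, with differences up to 0.49 for Aqp1, a water channel (adjusted p = 0.19). Cftr, the chloride channel of airway and alveolar epithelium, ranged from 9.49 to 10.20 (median 9.75) in NBD and from 8.41 to 9.18 (median 8.93) in BD. Cftr fell by 0.90 ± 0.19 (adjusted p = 0.0267), without overlap of the groups. Nedd4l, a ubiquitin ligase that removes the epithelial sodium channel from the membrane, ranged from 11.53 to 11.87 in NBD and from 11.01 to 11.37 in BD, and fell by 0.54 ± 0.10 (adjusted p = 0.00893). The median of the list was -0.03. At an unadjusted p under 0.05, 5 of the 14 were lower and 1 higher, against 1127 and 1103 of all 19239 features. The summed level of the list ranged from 0.04 to 0.14 in NBD and from -0.14 to 0.02 in BD, without overlap. Without animal 16, Cftr was no longer called (difference -0.85, adjusted p = 0.0697), whereas Nedd4l was (adjusted p = 0.0236). The call of Cftr was also lost without NBD animal 27, 29 or 6 or BD animal 20 or 18, with adjusted p-values up to 0.0726. The sodium channel subunits, named here, like Aqp1, after their values were seen, did not pass the test, with differences of -0.55 for Scnn1a (adjusted p = 0.0692), -0.06 for Scnn1b (adjusted p = 0.853) and -0.43 for Scnn1g (adjusted p = 0.0929).

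Other lists held few called members, set here against 0.53% called lower and 0.208% called higher over all features. Foxo3, a transcription factor active in fasting and low insulin signalling, ranged from 11.91 to 12.13 in NBD and from 11.28 to 11.66 in BD, and fell by 0.55 ± 0.10 (adjusted p = 0.0073). Together with Klf15 it made up the 2 called members of 20 measured FOXO and fasting response genes. Of 23 hypoxia response genes, 2 were called lower, Hif3a and P4ha2, a collagen prolyl hydroxylase that fell by 0.35 ± 0.05 (adjusted p = 0.00155), and 0 were called higher. Per1 was the 1 called member of 17 circadian clock genes, whose median was 0.10. Klf15, Hif3a and Per1 were already counted on the glucocorticoid list. A further 10 lists had 0 called members by limma in either direction. At an unadjusted p under 0.05, at which 1103 of all features were higher and 1127 lower, these held 2 higher and 5 lower of 22 adrenergic and cAMP response genes, 0 of 11 cholinergic genes, 2 higher and 1 lower of 13 osmotic stress genes, and 1 lower of 8 thyroid hormone genes. Stress lists held 1 higher of 16 heat shock genes, 1 higher and 4 lower of 24 unfolded protein response genes, and 7 higher of 16 antioxidant and heme genes. There were 3 lower of 20 cholesterol synthesis genes, 1 lower of 26 cell cycle genes, and 2 higher and 1 lower of 32 matrix genes. On average in BD, 18 cholesterol synthesis genes were lower and 2 higher (median -0.10), and 22 cell cycle genes were lower and 4 higher (median -0.13). Of the antioxidant and heme genes, 13 were higher on average and 3 lower (median 0.21).

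The largest rise was that of Ccl12, a chemokine for monocytes in rodents. It ranged from 7.71 to 8.73 with a median of 8.32 in NBD, and from 8.73 to 10.71 with a median of 9.89 in BD. The rise was 1.496 ± 0.301 (adjusted p = 0.0185), or 2.82-fold. The groups only just separated, since the lowest BD rat was at 8.733 and the highest NBD rat at 8.727. Without animal 16, the difference was 1.46 (adjusted p = 0.0459), and the call was lost when NBD animal 27 or 23 was left out, with adjusted p-values up to 0.0593.

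Ccl12 was the 1 called member of 35 cytokine and chemokine genes, against 0.208% of all features called higher. The median difference of the 35 was 0.09. Under HVT/LPEEP, 22 of the same 35 genes, and 1135 of all 19239 features, were called higher in BD, and the median of the 35 was 0.84. The interaction test called none of the 35, but its count over all features ran from 0 to 149 between alternatives. The study's qPCR panel was chosen on these arrays and gives no independent evidence. The qPCR differences that the study reports are between ventilation settings in BD rats, which is another comparison. In BD against NBD under LVT/OLPEEP, the other panel members did not pass on the arrays. Ccl2, another monocyte chemokine, ranged from 10.51 to 12.36 in NBD and from 11.20 to 12.80 in BD, with a difference of 0.94 ± 0.29 (adjusted p = 0.148). Il6, a cytokine of the acute phase, spread over 7.39 to 10.47 in NBD and 8.10 to 10.85 in BD, with a difference of 0.97 ± 0.59 (adjusted p = 0.548). For Tnf the difference was 0.74 ± 0.32 (adjusted p = 0.366), and for Cxcl1 0.26 ± 0.33 (adjusted p = 0.811). Groups overlapped for each of these 4 genes.

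Other rises were smaller. Slc30a1, which exports zinc from the cell, ranged from 9.39 to 9.62 (median 9.55) in NBD and from 9.89 to 10.19 (median 9.96) in BD, and rose by 0.47 ± 0.07 (adjusted p = 0.000815). Mapk6, an atypical MAP kinase, ranged from 10.24 to 10.66 in NBD and from 10.86 to 11.42 in BD, and rose by 0.61 ± 0.10 (adjusted p = 0.00353). Egfl7, a secreted protein of endothelial cells, ranged from 10.96 to 11.52 in NBD and from 11.73 to 12.07 in BD, and rose by 0.64 ± 0.13 (adjusted p = 0.0153). For these 3 genes every BD rat lay above every NBD rat, and all 3 stayed called without animal 16 (adjusted p up to 0.0416). Egfl7 was the 1 called member of 19 endothelial markers, against 0.208% of all features called higher, and the median of the 19 was 0.06. Ezr, which links the membrane to actin, rose by 0.49 ± 0.09 (adjusted p = 0.0123), and Dem1, now named Exo5, a DNA exonuclease, by 0.74 ± 0.16 (adjusted p = 0.024). Gpd1, a glycerol phosphate dehydrogenase, rose by 0.60 ± 0.12 (adjusted p = 0.0237) and Atp5l, a subunit of ATP synthase, by 0.49 ± 0.11 (adjusted p = 0.0278). Slc16a11, a monocarboxylate transporter, rose by 0.41 ± 0.08 (adjusted p = 0.0216) and G0s2, an inhibitor of lipolysis, by 0.40 ± 0.09 (adjusted p = 0.0351). Eid3 (0.76 ± 0.18, adjusted p = 0.048) and Mbp, a protein of myelin (0.48 ± 0.11, adjusted p = 0.0427), were called close to the threshold. Without animal 16, adjusted p-values were above 0.05 for Gpd1 (0.0528), Atp5l (0.0786), G0s2 (0.0764), Eid3 (0.0865) and Mbp (0.1002). These calls were lost without other single rats too, 5 in all for Gpd1, 7 for Atp5l, 8 for G0s2, 11 for Mbp and 20 for Eid3, counting animal 16. Dem1 was lost without NBD animal 27, 29 or 23 or BD animal 18 or 14 (adjusted p up to 0.0726), and Slc16a11 without NBD animal 6 or BD animal 18, 14 or 9 (adjusted p up to 0.0608).

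Other lists without a called member are described by their counts. Of 32 immediate early genes, which respond within minutes to many stimuli, 28 were higher on average in BD and the median was 0.26, with 11 higher and 2 lower at an unadjusted p under 0.05. Their summed level overlapped between the groups, from -0.64 to -0.09 in NBD and from -0.42 to 0.03 in BD. The members with the smallest p-values were Klf10 (0.42 ± 0.10, adjusted p = 0.0561) and Ier3 (0.89 ± 0.23, adjusted p = 0.0711). All 11 measured platelet markers were higher on average in BD, with a median of 0.46 (8 at an unadjusted p under 0.05), and their summed level ranged from -0.63 to -0.24 in NBD and from -0.33 to 0.54 in BD, which overlap. Ppbp, a platelet chemokine, ranged from 8.56 to 8.83 in NBD and from 9.05 to 9.96 in BD (difference 0.72 ± 0.23, adjusted p = 0.175). Over all features, 9875 of 19239 were higher on average in BD. Whether the platelet markers bear on any other gene was not tested. Of 33 interferon-stimulated genes, 22 were lower on average and the median was -0.21 (0 at an unadjusted p under 0.05). This direction rested on NBD animal 30, whose summed level was 1.20, while the other 5 NBD rats lay between -0.72 and 0.04 and the BD rats between -0.59 and 0.06. Without that rat, left out after the data were seen, 10 were lower and 23 higher on average, and the median was 0.09. Of 23 NF-kappaB pathway genes 0 were called, with a median of 0.18 (5 higher unadjusted).

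Markers of the other cell types held no call. Over all 19239 features, 1103 were higher and 1127 lower at an unadjusted p under 0.05. At an unadjusted p under 0.05, 3 of 23 neutrophil markers were higher and 1 lower (median 0.09), and 3 of 23 T, B and NK cell markers were higher (median 0.20). On average in BD, 20 of the T, B and NK cell markers were higher and 3 lower. Of 16 alveolar type I markers 1 was higher and 1 lower (median -0.08), and of 15 type II markers 1 was lower (median -0.03). The counts were 2 higher of 17 club and ciliated cell markers (median 0.14), 4 higher and 2 lower of 14 smooth muscle and fibroblast markers (median 0.18), 1 higher of 10 erythroid markers (median 0.09) and 0 of 13 mast cell and eosinophil markers (median 0.07). Leaving out 1 rat, also chosen after the data were seen, turned the sign of the median for type II markers (0.002 without BD animal 16), mast cell and eosinophil markers (-0.03 without BD animal 9), endothelial markers (-0.04 without NBD animal 5) and circadian clock genes (-0.01 without BD animal 20). The part of these markers in the called differences was not tested.

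The array of BD animal 16 was rich in skeletal muscle genes. The summed level of the 22 measured markers, each centred on its mean over the 24 arrays, was 3.38 there and between -0.29 and 0.36 on the other 23 arrays. Of the 22 markers, 21 were highest on this array. Acta1, skeletal muscle actin, was at 13.76 there, while the highest NBD LVT/OLPEEP rat was at 9.52 and the BD median was 9.57. All 22 were higher on average in BD with a median difference of 0.73, but 0 were called by limma. At an unadjusted p under 0.05, 1 was higher, against 1103 of all 19239 features. Without animal 16 the median difference was 0.07. Cardiac muscle markers were high on several arrays. Their summed level was 1.05 in BD animal 20, 0.49 in BD animal 9 and 0.54 in NBD animal 6, where 9, 5 and 6 of the 13 markers lay over 1 above their median across the series. It was 1.07 in BD animal 16, where 5 of the 13 did so and the median marker lay 0.04 above. In the other LVT/OLPEEP arrays the summed level was -0.14 or lower. All 13 cardiac markers were higher on average in BD (median 0.47, 0 called, 0 at an unadjusted p under 0.05), and the median was 0.44 without animal 16. Leaving the muscle markers out of the counts removed none of the 142 calls, as no marker was among them. The fit was not repeated for this, so the call of another feature could not change.

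**Figure D3:**
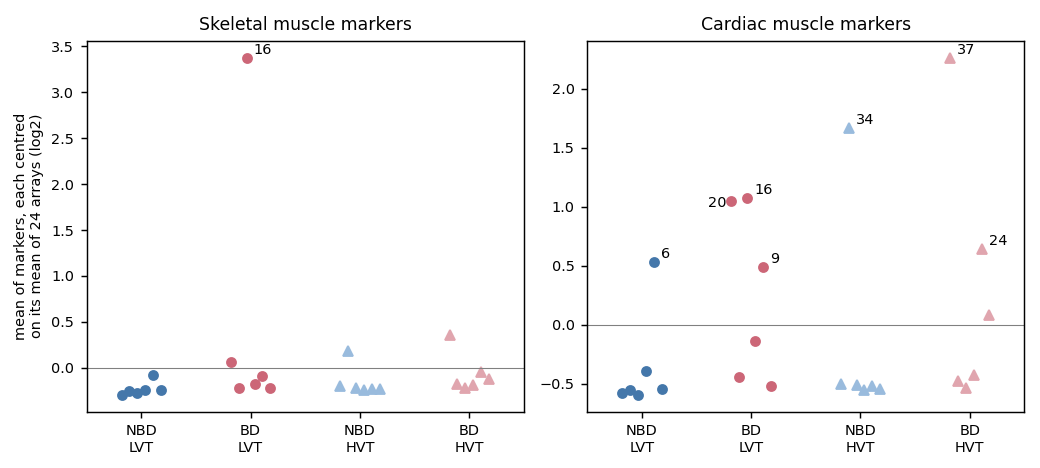
Mean of the skeletal (left) and cardiac (right) muscle markers on each array (vertical axis, log2, each marker centred on its mean over 24 arrays) in the 4 groups, with animal numbers beside arrays above 0.4. BD animal 16 stands at 3.38 for skeletal muscle, and for cardiac muscle at least 1 array in each of the 4 groups lies above 0.4.

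The same comparison in the HVT/LPEEP rats went the same way for nearly all of the falls. Of the 102 features lower under LVT/OLPEEP, 101 were lower on average in BD under HVT/LPEEP, and 87 (85.3%) were called lower. Over all features, 10422 of 19239 were lower on average in BD there and 14.4% were called in either direction (1636 lower and 1135 higher). Of the 40 higher features, 37 were higher under HVT/LPEEP and 23 (57.5%) were called. Without animal 16, all 56 lower features were lower on average under HVT/LPEEP (52 called), and 23 of the 24 higher features were higher (15 called). The settings share no rats, but they share the normalisation and the estimate of spread, through which the HVT/LPEEP rats also entered the choice of the 142 features. Zbtb16 differed by -2.72, Fkbp5 by -1.57, Per1 by -1.42 and Tsc22d3 by -1.27 under HVT/LPEEP, and Ccl12 by 2.93.

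A few named genes were called under LVT/OLPEEP alone. Under HVT/LPEEP, Cftr differed by -0.13 (adjusted p = 0.73), Gpd1 by 0.02 (adjusted p = 0.948), Slc16a11 by 0.07 (adjusted p = 0.671), Egfl7 by 0.21 (adjusted p = 0.295) and Mbp by 0.30 (adjusted p = 0.0698). The test of the difference between settings passed for none of the 142 features, the smallest adjusted p being 0.102 (23 of the 102 lower and 15 of the 40 higher features at an unadjusted p under 0.05, against 2629 of all features), so that these genes are not shown to differ between ventilation settings. Over all features that test called 2 (0.0104%), Fzd2 and Trim3, and neither was called under LVT/OLPEEP. Fzd2, a receptor for Wnt proteins, differed by 0.15 ± 0.10 under LVT/OLPEEP and by -0.69 under HVT/LPEEP. For Trim3, a ubiquitin ligase, the differences were -0.08 ± 0.06 and -0.56.

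**Figure D4:**
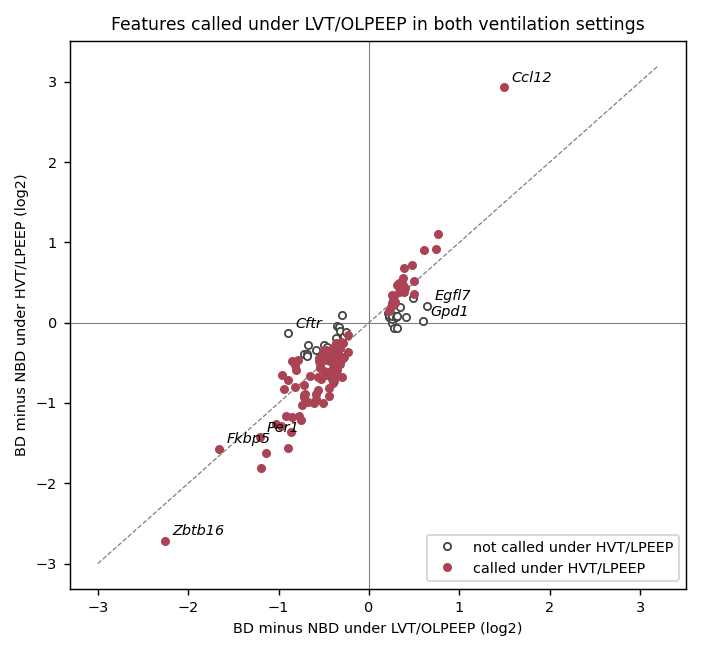
Difference between BD and NBD under HVT/LPEEP (vertical axis, log2) against that under LVT/OLPEEP (horizontal axis, log2) for the 142 features called under LVT/OLPEEP, with features also called under HVT/LPEEP filled and equal differences on the dashed line. Of the lower features 101 of 102, and of the higher features 37 of 40, have the same sign in both.

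The number of called features depended on single arrays. Leaving out 1 array at a time gave between 57 calls (without NBD LVT/OLPEEP animal 27) and 267 calls (without NBD HVT/LPEEP animal 12, a rat outside the comparison that enters through the shared spread). Animal 16 was therefore not the array with the strongest effect on the count. Of the 29 called genes named by the rule, 19 stayed called whichever array was left out, and 12 stayed called under every alternative in which they were tested. The 1.5-fold minimum, which concerns counts only, is not among these, and Klf15 was not tested without the dimmest features. The 12 were Zbtb16, Fkbp5, Per1, Adamtsl2, Tsc22d3, RGD1563692, Mertk, Slc10a6, Hif3a, Slc30a1, Klf15 and P4ha2, of which Slc30a1 alone was higher in BD.

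**Figure D5:**
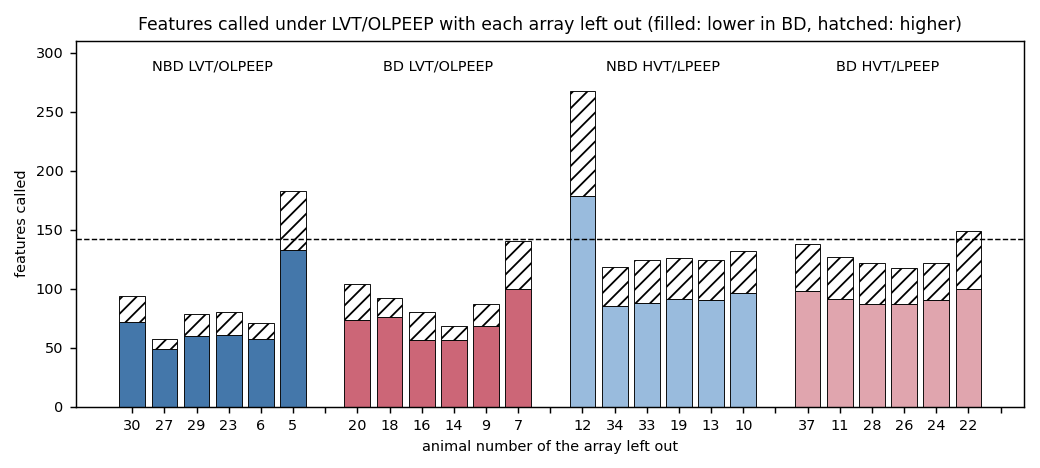
Number of features called between BD and NBD under LVT/OLPEEP (vertical axis) when the array of 1 rat is left out (horizontal axis, animal number, by group), with features lower in BD filled and higher in BD hatched. The dashed line marks the 142 calls with all arrays, and the counts run from 57 to 267.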

How the data were processed

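Groups were taken from the labels, with 6 rats in each of 4 groups and 1 array per rat. Expression on Affymetrix arrays was deposited by the authors as a log2 value for each feature. Sorting each of the 24 arrays gave the same values, as quantile normalisation does, and nothing further was done to them. How background was corrected and probes were combined was not given in the sources used here, nor was signal over background. Features were named from the platform annotation, which can be old (16592 of 19239 had 1 symbol). No slide or scan date was given, so batches were not tested. The number in each label was read as the animal number, and the labels do not say that it marks a batch. BD LVT/OLPEEP rats were numbered 7, 9, 14, 16, 18 and 20, and NBD LVT/OLPEEP rats 5, 6, 23, 27, 29 and 30. No NBD LVT/OLPEEP number lay between 7 and 20. Within LVT/OLPEEP, animal number as a covariate therefore cannot separate a batch of the numbers 7 to 20 from brain damage. Under HVT/LPEEP, NBD animals 10, 12, 13 and 19 were numbered in that range, with Fkbp5 at 11.12, 11.17, 11.82 and 11.23. BD animal 11 was also in it, at 9.98. BD animals 22, 24, 26, 28 and 37 were outside it, with Fkbp5 between 9.67 and 9.94. A batch of these numbers was not tested.

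Group means of all 24 arrays were fitted with limma 3.58.1 in R 4.3.3 (20 residual degrees of freedom), with two-sided tests and Benjamini-Hochberg adjustment over all features of a contrast. Benjamini-Hochberg was the main adjustment although the study's methods name Holm's, which is given beside it. The fit was tested on simulated data with independent noise per feature and planted changes larger than most of the called ones. That simulation held no outlying array, so it does not bear on smaller changes or on such arrays. The number of rats limits the precision.

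Genes and lists were chosen with earlier results of these data known. Named genes were the 12 largest rises and 12 largest falls among called features with a symbol, the called members of each list or else the 2 with the smallest p, the qPCR panel, features that passed the test between settings, and skeletal muscle markers. Listed symbols were first matched through synonyms, which gave wrong genes in places. Matching was corrected to gene numbers after the list results had been seen, which changed list sizes by about 1 member and no called member. A list's summed level is the mean over its members, each centred on its mean over 24 arrays. Of 6 promoter motifs, 4 were set in the plan and 2 were added with the calls known, and the loose form of the palindrome was chosen when the search was written.

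Alternatives were cyclic loess, a filter on the 40% dimmest features, eBayes with trend and robust, no moderation, array weights, animal number as a covariate, Holm's correction, a 1.5-fold minimum, a fit of 12 arrays, muscle markers left out, and leaving out each rat. Leaving out the muscle markers involved no new fit, so it could not alter the call of another gene. Leaving out BD animal 16 and NBD HVT/LPEEP animal 12 together was chosen after seeing the data.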

Additional observations from a re-analysis of the deposited data

Results flagged for a closer look

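Single rats stood apart from the other 5 of their group in 15 of 146 sets of 6 values tested (40 genes and 33 lists in both LVT/OLPEEP groups), judged by the gap to the nearest rat as a share of the group's range with a critical value of 0.625. Chance alone flags about 1 in 20.

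In BD LVT/OLPEEP, the summed level of skeletal muscle markers had the widest gap, with animal 16 at 3.38 and the next rat at 0.06 (gap 0.922 of the range). Tnf was high in animal 18 (0.695), Klf15 was high in animal 18 (0.690) and Map3k6 was high in animal 7 (0.626), while Cxcl1 was low in animal 20 (0.672). Animal 20 was also low for the summed level of immediate early genes (0.721), and animal 9 was high for that of mast cell and eosinophil markers (0.673).

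In NBD LVT/OLPEEP, animal 6 was high for the summed levels of cardiac muscle markers (0.820), skeletal muscle markers (0.743) and club and ciliated cell markers (0.641). Animal 5 was low for Zbtb16 (0.785), though still above every BD rat, and high for Ezr (0.707). Animal 30 was low for Atp5l (0.796) and high for Adamtsl2 (0.665), and animal 23 was high for the summed level of adrenergic and cAMP response genes (0.754).

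The difference between BD and NBD was not the same under both ventilation settings for Fzd2 and Trim3 by the interaction test. The difference under LVT/OLPEEP minus that under HVT/LPEEP was 0.84 for Fzd2 and 0.48 for Trim3 (adjusted p = 0.0455 for both).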

How the results depend on the processing

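Called features, 142 in all (40 higher and 102 lower in BD), kept within 1.5 times that number with cyclic loess (147), without the dimmest features (122), without moderation (118), with animal number as a covariate (123) and in a fit of 12 arrays (172, of which 62 higher). The count fell to 87 (14 higher) with trend and robust, to 17 (1 higher and 16 lower) with Holm's correction and to 42 (6 higher and 36 lower) at 1.5-fold, and rose to 608 (245 higher and 363 lower) with array weights. Without 1 rat it ranged from 57 to 267 (8 to 89 higher and 49 to 178 lower). The 2 calls of the test between settings became 0 with cyclic loess, trend and robust, no moderation or Holm's correction, 1 without the dimmest features or at 1.5-fold, 41 with array weights, 149 with animal number as a covariate, 20 without BD animal 16 and NBD HVT/LPEEP animal 12 together (chosen after seeing the data), and 0 to 134 without 1 rat, the highest without BD HVT/LPEEP animal 37. The cause was not tested. Called glucocorticoid target genes, 7 of 30, numbered 12 with array weights and 6 to 9 under the other alternatives. The count of differences between settings is therefore not settled.

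Of the 29 called genes named by the rule, none changed direction under any alternative, and 17 lost the call under at least 1, most often Eid3 (25 of 34) and Map3k6 (24 of 34). Uncalled genes changed sign near 0, namely Cxcl1 (-0.036) and Hif1a (-0.00503) with animal number as a covariate, and Hif1a without NBD animal 29 or BD animal 14 (range -0.028 to 0.0701 without 1 rat). No paired analysis was possible because the groups share no animal number. A p-value that missed the threshold does not show equal levels with 6 rats a group.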
